A study of Sus scrofa with 12 samples.

Results

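Antiviral effector genes that interferon switches on were followed through 12 libraries of pig peripheral blood mononuclear cells (PBMC), the lymphocytes, monocytes and related cells of blood. The set holds 8 genes, IFIT3, OAS2, OASL, IFITM3, IFI6, CMPK2, ZBP1 and PARP9, out of 7480 gene symbols in the table deposited by the authors. They were picked by name with earlier results of these data known, so the counts of their calls are not independent of those results. All 8 had a value in every library. The series compared 3 groups of 4 libraries. Cells treated with Salmonella together with a miR-124 sponge are called sponge plus Salmonella here, cells treated with Salmonella alone are called Salmonella, and non-treated cells are called control. All were labelled as crossbred Duroc x Landrace x Yorkshire, and the blood came from 20 piglets 4 weeks old (10 males and 10 females), with cells taken 12 h after treatment, per the series text. The series text names the bacterium Salmonella Typhi. A sponge is made to bind a microRNA, here miR-124. The libraries do not include cells given a control sponge or the sponge without bacteria. The titles of the sponge libraries read miR-124+Sa, without the word sponge, which appears in their descriptions and treatment labels. The labels do not tie libraries to animals, so the error behind each p-value is the spread of these libraries, which may be technical.

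Interferons are signalling proteins released when a cell senses microbial nucleic acid or bacterial products such as endotoxin. They bind receptors that act through kinases such as JAK1 and, downstream of them, transcription factors that turn on a large set of interferon-stimulated genes. The effector genes among them act on nucleic acids, membranes and nucleotide pools, and they are best known from viral infection. In blood, monocytes respond strongly to endotoxin and to the interferon that follows it.

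The deposited values are on a log2 scale, with the base taken as 2, and ran from 2.13 to 15.01. The depth behind each value is unknown, so no counting error is given. The library medians lay between 5.11 and 5.31, and correlations across genes between libraries of the same group lay between 0.953 and 0.987. A set of 189 symbols taken as silent in blood (olfactory and taste receptors, keratin-associated proteins and the like) had a mean of 4.63 and a 95th percentile of 5.26, and values near these levels are read as background. The sponge plus Salmonella columns differ in form from the others, with 65.1% to 71.4% of values equal to that of some other gene in the library, where the Salmonella and control columns had at most 0.0802%. The sponge treatment and this difference in column form cannot be told apart. Of the 32 values of the 8 genes in those columns, 7 were tied.

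**Figure D1:**
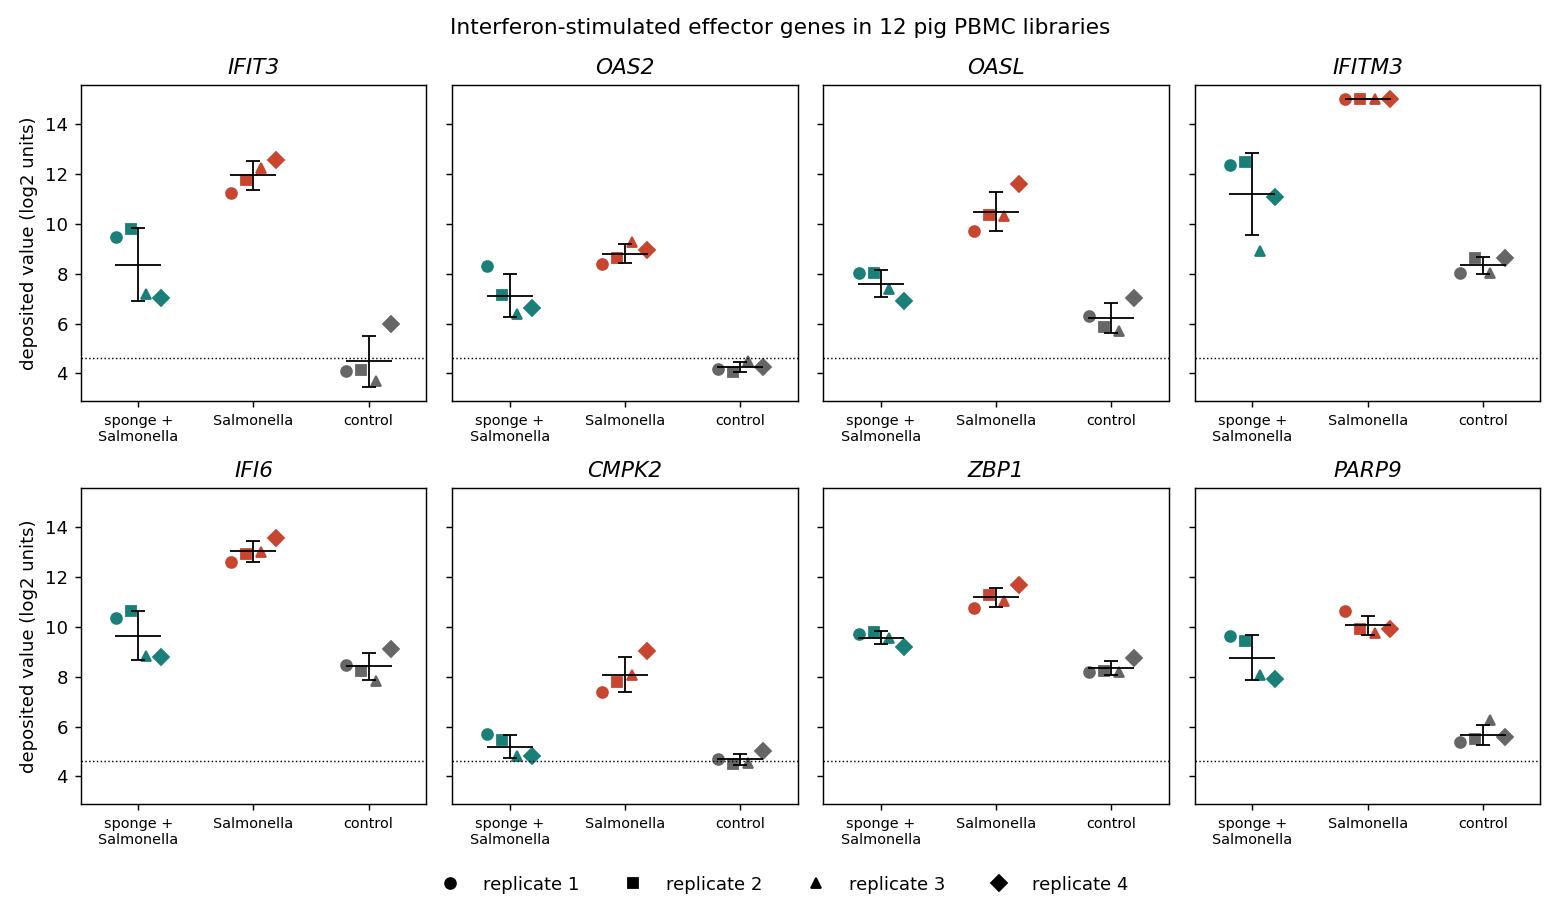
Deposited values (y axis, log2 units) of the 8 genes in each library of the sponge plus Salmonella, Salmonella and control groups (x axis). Each symbol is 1 library, the horizontal bar is the group mean, the error bar is the SD of 4 libraries, and the dotted line is the silent-set mean of 4.63. For every gene the 4 Salmonella libraries lie above the other 8.

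IFIT3, OAS2 and OASL encode proteins that deal with foreign RNA in the cytoplasm. IFIT3 (chromosome 14, 101214730 to 101225169 in Sscrofa11.1) works in a complex with IFIT1, which binds the ends of foreign RNA. IFIT3 stood at 9.46, 9.78, 7.20 and 7.02 log2 units in sponge plus Salmonella replicates 1 to 4, at 11.24, 11.75, 12.24 and 12.56 in Salmonella replicates 1 to 4, and at 4.10, 4.15, 3.69 and 5.99 in control replicates 1 to 4. The groups did not overlap, and control replicate 4 was the only control library above the silent-set mean for this gene. OAS2 (chromosome 14, 38827667 to 38847697) encodes a synthase that makes short oligoadenylates when it meets double-stranded RNA. Its values were 8.31, 7.13, 6.39 and 6.61 in sponge plus Salmonella libraries, 8.37, 8.64, 9.27 and 8.94 in Salmonella libraries and 4.18, 4.05, 4.51 and 4.24 in control libraries. All 4 control values were below the silent-set mean, and sponge plus Salmonella replicate 1 came within 0.06 of the lowest Salmonella library. OASL (chromosome 14, 40900050 to 40917189) encodes a relative of the OAS synthases that in humans lacks their activity and strengthens RNA sensing by RIG-I. OASL stood at 8.04, 8.04, 7.39 and 6.92 with sponge plus Salmonella, at 9.70, 10.37, 10.32 and 11.60 with Salmonella, and at 6.32, 5.87, 5.71 and 7.04 in control libraries. Here sponge plus Salmonella replicate 4 fell within the control range, just under control replicate 4.

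IFITM3 and IFI6 encode small membrane proteins. IFITM3 (chromosome 2, 128658 to 129736) restricts the entry of enveloped viruses at endosomal membranes. It stood at 12.35, 12.50, 8.91 and 11.06 in sponge plus Salmonella libraries, at 15.01 in all 4 Salmonella libraries, and at 8.05, 8.64, 8.02 and 8.64 in control libraries. The Salmonella value is the highest in each of those columns, with 0 genes above IFITM3, so its true level there may be higher and its spread of 0 is not a measured one. Between 54 and 885 genes stood above it in the sponge plus Salmonella columns and between 1093 and 1472 in the control columns. Sponge plus Salmonella replicate 3 lay only 0.27 above the highest control library. IFI6 (chromosome 6, 84852782 to 84858072) encodes a protein of internal membranes that in human cells limits the replication of flaviviruses. Its values were 10.38, 10.62, 8.85 and 8.77 with sponge plus Salmonella, 12.60, 12.93, 13.02 and 13.59 with Salmonella, and 8.48, 8.22, 7.84 and 9.13 in control libraries. Sponge plus Salmonella replicates 3 and 4 lay inside the control range of IFI6, below control replicate 4.

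CMPK2, ZBP1 and PARP9 act on nucleotides, on nucleic acid sensing and on interferon signalling. CMPK2 (chromosome 3, 128903395 to 128917873) encodes a mitochondrial kinase of pyrimidine nucleotides. CMPK2 stood at 5.69, 5.46, 4.80 and 4.80 with sponge plus Salmonella, at 7.37, 7.80, 8.09 and 9.03 with Salmonella, and at 4.71, 4.48, 4.53 and 5.0 in control libraries. All control values and sponge plus Salmonella replicates 3 and 4 were below the silent-set 95th percentile of 5.26. ZBP1 (chromosome 17, 57975982 to 57986117) encodes a sensor of Z-form nucleic acid that can start cell death through RIPK3. Its values were 9.72, 9.79, 9.56 and 9.20 with sponge plus Salmonella, 10.77, 11.28, 11.03 and 11.67 with Salmonella, and 8.20, 8.25, 8.19 and 8.75 in control libraries. The 3 groups of ZBP1 values did not overlap. PARP9 (chromosome 13, 137960987 to 138000862) encodes a partner of the ubiquitin ligase DTX3L, and in human cells this pair strengthens the response to interferon. PARP9 stood at 9.65, 9.44, 8.05 and 7.91 with sponge plus Salmonella, at 10.63, 9.92, 9.78 and 9.91 with Salmonella, and at 5.36, 5.51, 6.26 and 5.57 in control libraries. The highest sponge plus Salmonella value of PARP9 lay 0.13 below the lowest Salmonella value, while both groups lay far above control.

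The response to the bacterium was read from Salmonella against control libraries. All 8 effector genes rose with Salmonella, by 2.84 to 7.47 log2 units with a median of 4.47, where the median over all genes was -0.02. With limma, 8 of 8 passed a Benjamini-Hochberg adjusted p of 0.05, against 15.7% of the 7480 genes called higher, 17.9% called lower and 33.6% called in either direction. The values did not overlap for 8 of 8 either, and the share of all genes without overlap was 15.7% higher and 19.9% lower. CMPK2, the pyrimidine kinase, rose by 3.39 ± 0.33 (SE, n = 4 libraries per group, adjusted p = 4.6e-06 with limma), OASL by 4.26 ± 0.38 (adjusted p = 2.7e-06) and IFI6 by 4.62 ± 0.40 (adjusted p = 1.8e-06). The narrowest change was that of ZBP1, at 2.84 ± 0.20 with a 95% interval of 2.41 to 3.28. The widest was that of IFIT3, at 7.47 ± 0.61 with a 95% interval of 6.17 to 8.77. The change of IFIT3 and OAS2 is uncertain in size because their control means, 4.48 and 4.24, were below the silent-set mean, and that of CMPK2 because its control mean of 4.68 was close to it. The rise of IFITM3, 6.67 ± 0.55, is limited by the ceiling of the Salmonella columns. No left-out library ended any of these calls, and the largest adjusted p was 3.4e-05. Median centring of the libraries moved the balance of calls over all genes, with 35.2% of called genes higher in place of 46.8%, and all 8 effector genes were still called higher.

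**Figure D2:**
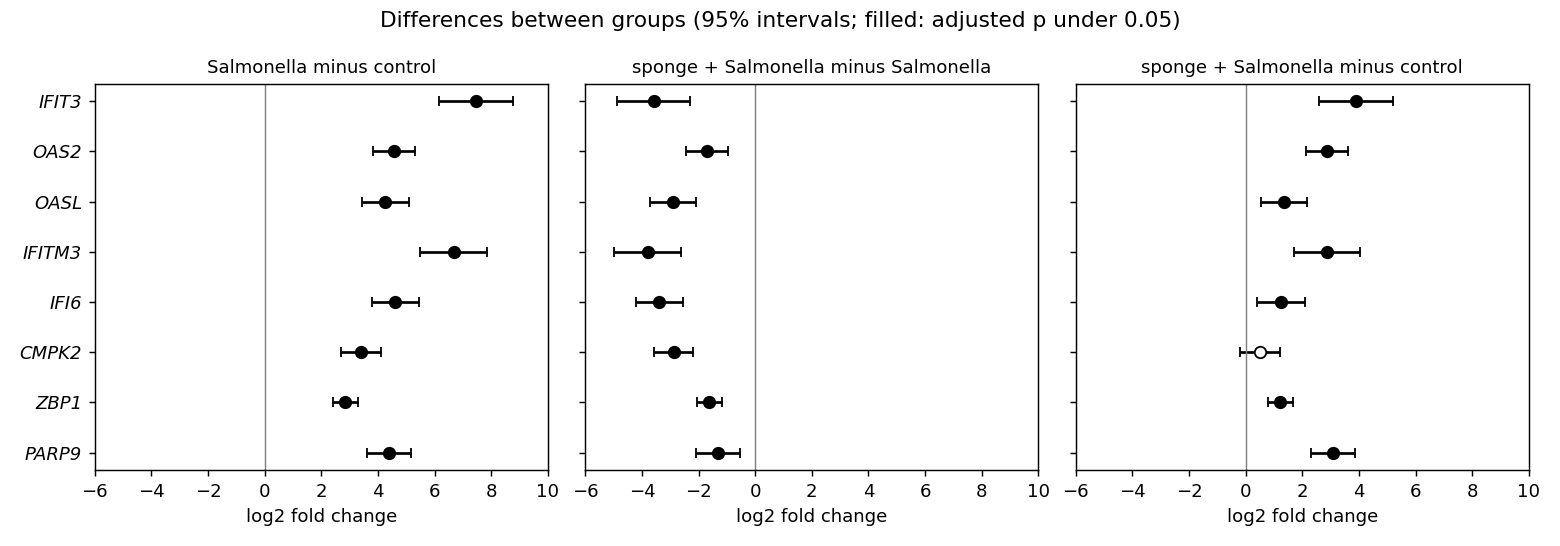
Log2 fold changes (x axis) of the 8 genes (y axis) in 3 comparisons, with 95% intervals from limma and filled points where the adjusted p was under 0.05. All points lie right of 0 for Salmonella minus control and left of 0 for sponge plus Salmonella minus Salmonella. CMPK2 is the open point for sponge plus Salmonella minus control, with an interval from -0.20 to 1.21.

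The effect of adding the sponge was read from sponge plus Salmonella against Salmonella libraries, and "with the sponge" refers to this comparison unless control is named. All 8 genes were lower with the sponge, with differences from -3.80 to -1.30 log2 units (median -2.89, where the median over all genes was -0.04). With limma 8 of 8 were called lower, against 13.2% of all genes called lower, 11.9% called higher and 25% called in either direction, and 8 of 8 had no overlap between the groups, where 13.2% of all genes were lower and 10.6% higher without overlap. CMPK2 differed by -2.88 ± 0.33 (SE, n = 4 per group, adjusted p = 1.2e-04 with limma), OASL by -2.90 ± 0.38 (adjusted p = 2.8e-04) and ZBP1 by -1.62 ± 0.20 (adjusted p = 1.9e-04). OAS2 differed by -1.69 ± 0.35 (adjusted p = 0.0034), and its groups were parted by only 0.06. IFI6 had a difference of -3.38 ± 0.40 (adjusted p = 1.3e-04) and IFIT3 one of -3.58 ± 0.61 (adjusted p = 0.0011). The difference of PARP9, -1.30 ± 0.36 (adjusted p = 0.018), was the smallest of the 8. Its call ended without sponge plus Salmonella replicate 3 (adjusted p = 0.0597) or replicate 4 (adjusted p = 0.0605), and with values floored at the silent-set mean (adjusted p = 0.0569). IFITM3 differed by -3.80 ± 0.55, which depends on sponge plus Salmonella replicate 3 and came to -3.04 without it. The IFITM3 value is again limited by the column ceiling.

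Set against control, the sponge plus Salmonella libraries had 7 of the 8 genes higher (adjusted p under 0.05 with limma), where 17.9% of all genes were called higher, 23% lower and 40.9% in either direction. Values did not overlap for 5 of 8, where 17.3% of all genes were higher and 22.5% lower without overlap. IFIT3 was higher by 3.88 ± 0.61 (SE, n = 4 per group), PARP9 by 3.08 ± 0.36, OAS2 by 2.87 ± 0.35 and IFITM3 by 2.87 ± 0.55, the last of which came to 3.63 without sponge plus Salmonella replicate 3. OASL was higher by 1.36 ± 0.38 (adjusted p = 0.012) and ZBP1 by 1.23 ± 0.20 (adjusted p = 4.5e-04). For IFI6 the difference was 1.24 ± 0.40 (adjusted p = 0.022), and 2 of 4 sponge plus Salmonella libraries lay above all control libraries. The call of IFI6 ended without sponge plus Salmonella replicate 1 or 2 (adjusted p = 0.0677 and 0.0769), without control replicate 2 or 3 (0.0520 and 0.0619), and with values floored at the silent-set mean (0.0677). CMPK2 did not pass, at 0.51 ± 0.33 with a 95% interval of -0.20 to 1.21 (adjusted p = 0.23, and 0.0847 to 0.457 over the alternatives), and it was above all control libraries in 2 of 4 sponge plus Salmonella libraries. Over all genes, 43.7% of the calls were higher, and 29.2% after median centring, where the median of all genes was -0.20 in place of -0.07. All 7 genes were also called after that centring.

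The order of group means was thus the same for each of the 8 genes, with Salmonella highest, sponge plus Salmonella next and control lowest. The 3 comparisons share libraries, so this order and the 3 sets of differences are not independent. Sponge plus Salmonella and Salmonella values did not overlap for any of the 8 genes, though the PARP9 call ended in 3 refits. Sponge plus Salmonella and control values overlapped for OASL, IFI6 and CMPK2, with CMPK2 not called and the IFI6 call ending in 5 refits. The genes differed in where the sponge plus Salmonella mean fell. PARP9 averaged 8.76 ± 0.91 log2 units with sponge plus Salmonella, 10.06 ± 0.39 with Salmonella and 5.68 ± 0.40 in control libraries (SD, n = 4), so it lay closer to Salmonella than to control. OAS2 did too, at 7.11 ± 0.86 with sponge plus Salmonella, 8.81 ± 0.39 with Salmonella and 4.24 ± 0.19 in control libraries. CMPK2 lay closer to control, at 5.19 ± 0.46 with sponge plus Salmonella, 8.07 ± 0.70 with Salmonella and 4.68 ± 0.23 in control libraries, as did IFI6, at 9.65 ± 0.98 with sponge plus Salmonella, 13.03 ± 0.41 with Salmonella and 8.42 ± 0.54 in control libraries. The position of OAS2 is uncertain because its control mean was below the silent-set mean of 4.63. Its sponge plus Salmonella values ran from 6.39 to 8.31. The position of CMPK2 is also uncertain. Its sponge plus Salmonella and control means were both below the silent-set 95th percentile of 5.26. Whether the genes differ from each other in where the sponge plus Salmonella mean fell was not tested.

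Ranks within a library do not depend on how libraries were scaled, and they show the same order. Ranks are used only to compare a gene with itself, because scaling by gene length is not given in the sources used here. IFIT3 stood at the 71.8 to 93.3 percentile of the 7480 genes in sponge plus Salmonella libraries and at the 97.2 to 99.0 percentile in Salmonella libraries. In control libraries it was at the 0.147 to 1.67 percentile in replicates 1 to 3 and at 61.3 in replicate 4. CMPK2 ran from 36.3 to 55.5 with sponge plus Salmonella, from 74.4 to 88.0 with Salmonella and from 19.7 to 46.8 in control libraries. ZBP1 was high in every library, from 90.1 to 93.3 with sponge plus Salmonella, from 96.3 to 97.7 with Salmonella and from 81.7 to 86.1 in control libraries.

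The sponge plus Salmonella libraries were far apart from each other for most of these genes, and some genes were as widely spread in another group. The SD of IFITM3 in this group, 1.66 log2 units, was at the 99.9 percentile of the SDs of all genes in the group, and that of IFIT3, 1.46, was also at the 99.9 percentile. IFI6 (0.98), PARP9 (0.91) and OAS2 (0.86) were at the 99.3, 99.1 and 98.9 percentiles, OASL (0.55) at 93.9 and CMPK2 (0.46) at 88.4. ZBP1 was the exception, with an SD of 0.26 at the 56.1 percentile. Many of the genes ranked were near background, as only 4144 of 7480 had a mean of at least 5. The SDs were not ranked among expressed genes alone. In Salmonella libraries OASL (0.80, 96.8 percentile), CMPK2 (0.70, 95.1 percentile) and ZBP1 (0.38, 77.2 percentile) had larger SDs than with sponge plus Salmonella. In control libraries IFIT3 (1.03) was at the 99.5 percentile, OASL (0.60) at 94.4 and IFI6 (0.54) at 92.8. Replicate 1 was the highest of the group for 4 genes and replicate 2 for the other 4, while replicate 4 was the lowest for 6 and replicate 3 for 2. Every gene therefore had its lower pair of values in replicates 3 and 4. In Salmonella libraries replicate 4 was the highest for 5 of 8 genes and replicate 1 the lowest for 6, and IFITM3 was the same in all 4. In control libraries replicate 4 was the highest for 5 genes, namely IFIT3, OASL, IFI6, CMPK2 and ZBP1, and replicate 3 the lowest for 5.

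**Figure D3:**
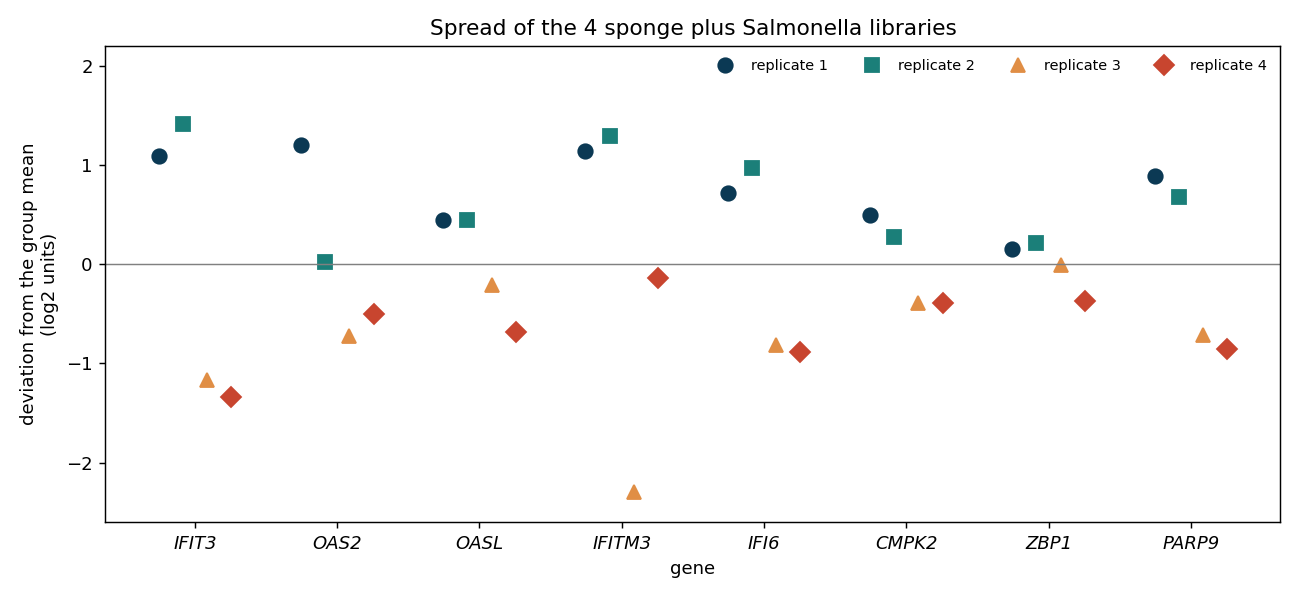
Deviation of each sponge plus Salmonella library from the mean of its group (y axis, log2 units) for the 8 genes (x axis), with 1 symbol per library. Replicates 1 and 2 lie above 0 and replicates 3 and 4 at or below 0 for every gene. IFITM3 in replicate 3, at 8.91 log2 units, lies farthest from its group mean of 11.21.

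Levels of cell type markers differed between the groups as well, and in bulk samples fewer cells of a type and less RNA per cell cannot be told apart. Of 12 listed monocyte markers 7 were measured, and their mean ran from 9.24 to 9.69 in sponge plus Salmonella, from 9.97 to 10.20 in Salmonella and from 8.48 to 8.97 in control libraries. With Salmonella 5 of 7 were higher and 0 lower, and with the sponge 4 of 7 were lower than with Salmonella alone and 0 higher (limma, adjusted p under 0.05), where 15.7% of all genes were higher with Salmonella and 13.2% lower with the sponge. The count with the sponge was 2 of 7 without sponge plus Salmonella replicate 4 or Salmonella replicate 3, and the calls of LYZ and CCR2 ended in 6 and 3 of 10 settings. For 12 of 16 T cell markers the mean ran from 8.42 to 9.03 in sponge plus Salmonella libraries. It ran from 7.62 to 8.13 in Salmonella and from 9.02 to 9.33 in control libraries. With Salmonella 11 of 12 were lower, against 17.9% of all genes. With the sponge 10 of 12 were higher than with Salmonella alone, against 11.9% of all genes, and at least 8 with any library left out. B cell markers (4 of 9 measured) ran from 8.21 to 8.71 in sponge plus Salmonella, from 6.58 to 7.16 in Salmonella and from 8.68 to 9.26 in control libraries. NK cell markers (4 of 10) ran from 8.67 to 9.27 in sponge plus Salmonella, from 8.53 to 8.87 in Salmonella and from 9.72 to 10.03 in control libraries. Within the sponge group, replicates 1 to 4 had monocyte means of 9.69, 9.60, 9.39 and 9.24. Their T cell means were 8.43, 8.42, 8.87 and 9.03. In this group the libraries with the higher effector genes also had the higher monocyte and the lower T cell means. Among Salmonella libraries, replicate 4 had the highest mean of the 8 genes and the lowest monocyte mean, 9.97. Replicate 1 there had the lowest mean of the 8 genes and the highest monocyte mean, 10.20. T cell means of Salmonella replicates 4 and 1 were 7.63 and 7.62. In control libraries replicate 4 had the highest mean of the 8 genes, with a monocyte mean of 8.61 against 8.97 in replicate 2. Erythroid markers (3 of 9) ran from 7.49 to 9.82 in sponge plus Salmonella, from 10.05 to 10.79 in Salmonella and from 8.85 to 9.77 in control libraries. Platelet markers (6 of 8) ran from 8.41 to 8.80 in sponge plus Salmonella, from 8.22 to 8.70 in Salmonella and from 7.54 to 7.82 in control libraries. Neutrophil markers (6 of 10) ran from 6.66 to 7.12 in sponge plus Salmonella, from 6.99 to 7.94 in Salmonella and from 6.42 to 7.06 in control libraries. The neutrophil markers moved in different directions with Salmonella. S100A12 (3.37 ± 0.52, SE) and MPO (1.08 ± 0.36) were higher, RETN (-1.54 ± 0.40) was lower, and CSF3R, MMP8 and MMP9 were not called. The MPO call ended in 4 of 10 settings. The part of these shifts in the values of the 8 genes was not tested. CD3D, a defining T cell gene, averaged 5.34 in sponge plus Salmonella, 4.53 in Salmonella and 4.29 in control libraries, near background, while CD2 averaged 10.63 in sponge plus Salmonella, 9.81 in Salmonella and 11.44 in control libraries. Plasmacytoid dendritic cells, the main producers of type I interferon in blood, were represented by 4 of 8 markers (TCF4, SPIB, TLR7 and TLR9), with means from 6.43 to 7.10 in sponge plus Salmonella, from 6.32 to 6.81 in Salmonella and from 6.28 to 6.60 in control libraries, and these ranges overlapped. The 4 markers moved in different directions. With Salmonella TLR7 was higher (2.31 ± 0.38, SE) and TCF4 (-1.40 ± 0.25) and TLR9 (-0.73 ± 0.19) were lower, and with the sponge SPIB was higher (1.31 ± 0.28) and TLR7 lower (-1.54 ± 0.38). Conventional dendritic cell markers (3 of 7) ran from 6.49 to 6.93 in sponge plus Salmonella, from 6.25 to 6.48 in Salmonella and from 7.15 to 7.60 in control libraries. That shift was carried by FCER1A, which averaged 10.07 in sponge plus Salmonella, 8.56 in Salmonella and 11.58 in control libraries, while FLT3 and XCR1 were not called and had means from 4.76 to 5.55.

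**Figure D4:**
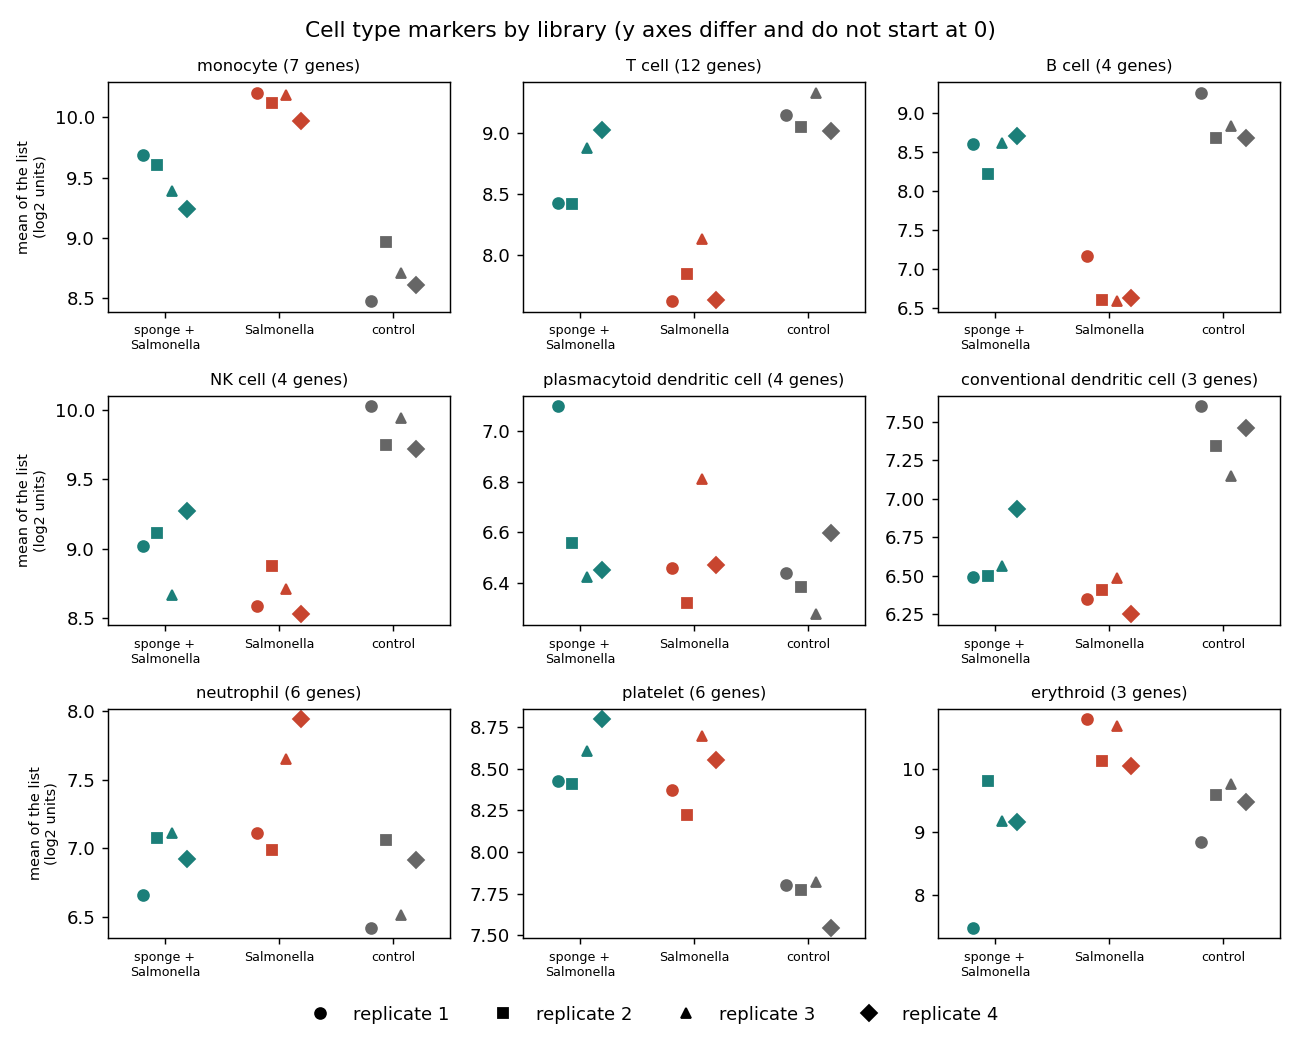
Mean level of each cell type's measured markers (y axis, log2 units, with a separate scale in each panel) in every library of the 3 groups (x axis), with 1 symbol per library. Monocyte means run from 9.24 to 9.69 in sponge plus Salmonella, from 9.97 to 10.20 in Salmonella and from 8.48 to 8.97 in control libraries.

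Other interferon-stimulated effector genes were taken from a list of 62, of which 26 were measured. With Salmonella 21 of 26 rose, IFITM5 fell and HERC6, TRIM34, PNPT1 and GMPR were not called (limma, median log2 change 2.32, against -0.02 over all genes and 15.7% called higher). The members with the smallest p were TDRD7, a tudor-domain protein (2.31 ± 0.20, SE), PARP14, an ADP-ribosyltransferase (3.54 ± 0.31), and IFIT2, a relative of IFIT3 (3.91 ± 0.35). IFITM5 differed by -0.29 ± 0.07 and was at or below background, with means of 4.35 in Salmonella and 4.64 in control libraries. With the sponge 18 of 26 were lower than with Salmonella alone, 1 was higher and 7 were not called (median -1.10, against -0.04 over all genes and 13.2% called lower). TDRD7 differed by -1.34 ± 0.20, PARP14 by -1.87 ± 0.31 and IFIT2 by -2.16 ± 0.35. The gene that was higher was PNPT1, which encodes an RNA-processing enzyme of mitochondria. PNPT1 averaged 11.68 ± 0.13 with sponge plus Salmonella, 9.60 ± 0.76 with Salmonella and 9.42 ± 0.70 in control libraries (SD, n = 4), and it differed by 2.08 ± 0.35 (SE, adjusted p = 0.0010 with limma) from Salmonella alone. Against control 16 of 26 were higher in sponge plus Salmonella libraries, 2 were lower and 8 were not called. The median was 0.90, against -0.07 over all genes, of which 17.9% were called higher and 23% lower. Only 10 of the 26 were higher without sponge plus Salmonella replicate 2. TDRD7 was higher by 0.97 ± 0.20, PARP14 by 1.67 ± 0.31 and IFIT2 by 1.75 ± 0.35, and the 2 lower genes were GMPR (-1.64 ± 0.37) and IFITM5 (-0.20 ± 0.07), and the IFITM5 call ended in 6 of 10 settings (each left-out library, median centring and quantile normalization). PNPT1, IFITM5, GMPR, HERC6 and TRIM34 were chosen after their values were seen.

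**Figure D5:**
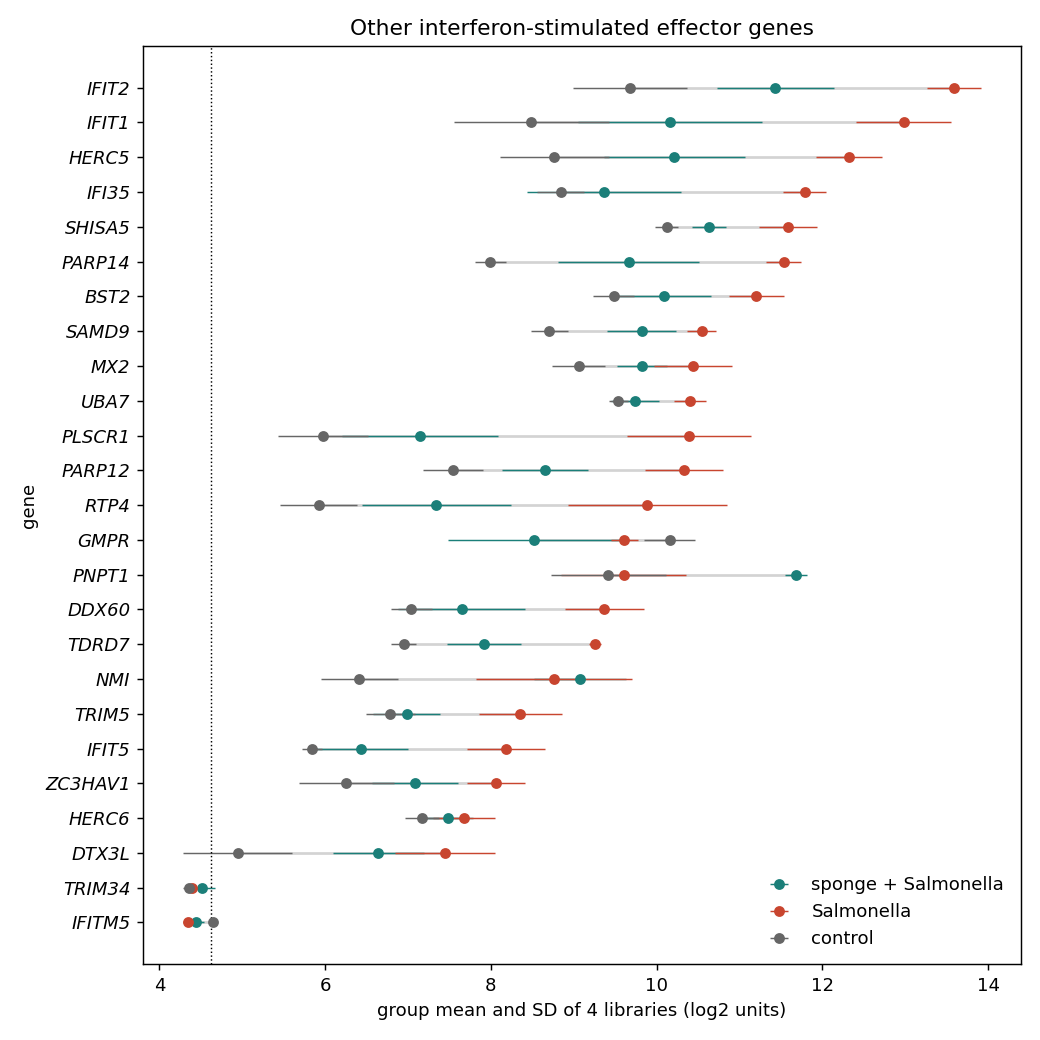
Group means (x axis, log2 units) of other interferon-stimulated effector genes (y axis), with bars for the SD of 4 libraries and a dotted line at the silent-set mean of 4.63. Salmonella means lie right of control means for most genes, with sponge plus Salmonella means between them. PNPT1, NMI and TRIM34 have their highest mean in the sponge plus Salmonella group, and of these PNPT1 was called against Salmonella.

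Partners of the 8 proteins were not all called as the 8 genes were. Whether a partner differs from the gene it works with was not tested. DTX3L, the partner of PARP9, averaged 6.64 ± 0.55 in sponge plus Salmonella, 7.45 ± 0.60 in Salmonella and 4.94 ± 0.66 in control libraries (SD, n = 4). It rose by 2.50 ± 0.37 with Salmonella and differed by -0.80 ± 0.37 with the sponge, which did not pass (adjusted p = 0.13 with limma). IFIT1, the partner of IFIT3, rose by 4.49 ± 0.51 with Salmonella and differed by -2.82 ± 0.51 with the sponge, and its difference of 1.67 ± 0.51 from control ended without sponge plus Salmonella replicate 1 or 2. DTX3L and IFIT1 were chosen after their values were seen. Of 10 listed partners of ZBP1 in cell death 4 were measured, with 2 higher and 0 lower with Salmonella, and 1 higher and 2 lower with the sponge than with Salmonella alone. Over all genes 33.6% were called in either direction with Salmonella and 25% with the sponge. CASP6, a caspase, rose by 1.01 ± 0.27 with Salmonella and was higher again by 1.06 ± 0.27 with the sponge. CASP6 averaged 6.20 in sponge plus Salmonella, 5.14 in Salmonella and 4.13 in control libraries. The control mean was below background, and the Salmonella mean was below the silent-set 95th percentile of 5.26. PYCARD, the inflammasome adaptor, rose by 0.74 ± 0.26 with Salmonella, a call that ended in 7 of 10 settings, and differed by -1.43 ± 0.26 with the sponge. NLRP3, an inflammasome sensor, differed by 0.23 ± 0.16 with Salmonella, which did not pass, and differed by -0.67 ± 0.16 with the sponge. Against control CASP6 was higher by 2.07 ± 0.27, and the lower calls of PYCARD (-0.69 ± 0.26) and NLRP3 (-0.44 ± 0.16) ended in 6 and 7 of 10 settings.

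Nucleotide enzymes near CMPK2 in function gave a mixed picture. Of 16 listed genes of pyrimidine and deoxynucleotide metabolism 8 were measured. With Salmonella 4 rose and 0 fell (median 0.58), and with the sponge 2 were higher and 2 lower than with Salmonella alone (median -0.49), where 15.7% of all genes were higher and 17.9% lower with Salmonella, and 11.9% and 13.2% with the sponge. TYMS, the thymidylate synthase, rose by 1.54 ± 0.31 and differed by -1.43 ± 0.31 with the sponge, and TK1, a thymidine kinase, rose by 1.17 ± 0.20 and differed by -0.93 ± 0.20, with means near background of 4.87 in sponge plus Salmonella and 4.63 in control libraries. Neither passed between sponge plus Salmonella and control, at 0.11 ± 0.31 for TYMS and 0.24 ± 0.20 for TK1. RRM2B, a ribonucleotide reductase subunit, was higher by 1.05 ± 0.35 with Salmonella than in control and by 1.09 ± 0.35 with the sponge than with Salmonella alone. These calls of RRM2B ended in 4 and 6 of 10 settings, while its difference of 2.14 ± 0.35 between sponge plus Salmonella and control held. Its control mean of 3.80 was below background, and its Salmonella mean of 4.85 was below the silent-set 95th percentile of 5.26. CMPK1, a cytosolic relative of CMPK2 in function, rose by 1.72 ± 0.59 with Salmonella, a call that ended in 4 of 10 settings. NME1, a nucleoside diphosphate kinase, differed by 0.52 ± 0.18 with the sponge, a call that ended in 9 of 10 settings. The NME1 means, 5.18 in sponge plus Salmonella, 4.67 in Salmonella and 4.56 in control libraries, were also below 5.26. Against control 3 were higher (CMPK1, RRM2B and NME1) and 2 lower (UCK2 and CDA) in sponge plus Salmonella libraries. Over all genes 17.9% were called higher and 23% lower in this comparison, so the count of lower genes is near the background. The calls of UCK2 and CDA ended in 5 and 2 of 10 settings. CMPK1, NME1, UCK2 and CDA were named after their values were seen. Among ADP-ribosyltransferases, the family of PARP9, 6 of 13 were measured, and PARP12 and PARP14 rose with Salmonella while PARP1 fell, against 15.7% of all genes higher and 17.9% lower. PARP12 rose by 2.79 ± 0.28 and differed by -1.68 ± 0.28 with the sponge, and it stayed 1.11 ± 0.28 above control. PARP1, a DNA repair enzyme, fell by 0.73 with Salmonella (SE 0.15), was higher by 0.58 ± 0.15 with the sponge and differed by -0.16 ± 0.15 from control with the sponge.

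Upstream of the effector genes, sensors and feedback inhibitors were partly measured. Of 21 nucleic acid sensors and their adaptors 6 were measured, with 3 higher and 1 lower with Salmonella, 0 higher and 3 lower with the sponge than with Salmonella alone, and 2 higher and 1 lower against control. All genes gave 15.7% higher and 17.9% lower with Salmonella, 11.9% and 13.2% with the sponge, and 17.9% and 23% against control, which is also the background for the feedback inhibitors. IFIH1, the RNA sensor MDA5, rose by 3.12 ± 0.31 with Salmonella, differed by -1.76 ± 0.31 with the sponge and remained 1.36 ± 0.31 above control. TLR7 rose by 2.31 ± 0.38, differed by -1.54 ± 0.38 with the sponge and differed by 0.77 ± 0.38 from control, which passed only without sponge plus Salmonella replicate 3 (adjusted p = 0.0392). TLR8 rose by 1.71 ± 0.25, and its difference of -0.89 ± 0.25 with the sponge and of 0.82 ± 0.25 against control lost their calls in 3 and 2 of 10 settings. Both are endosomal sensors of single-stranded RNA. The sensor that was lower in sponge plus Salmonella and in Salmonella libraries than in control libraries was TLR9, a sensor of bacterial DNA, at -0.72 ± 0.19 for sponge plus Salmonella and -0.73 ± 0.19 for Salmonella, with means near background of 4.74 and 4.73 in these groups. TLR9 was named after its values were seen. Of 5 feedback inhibitors 3 were measured, and 3 of 3 rose with Salmonella and were lower with the sponge. SOCS1, which blocks JAK kinases, rose by 4.87 ± 0.42, differed by -2.40 ± 0.42 with the sponge and stayed 2.46 ± 0.42 above control. USP18, which blocks the type I interferon receptor, rose by 1.63 ± 0.23, differed by -1.17 ± 0.23 with the sponge and differed by 0.45 ± 0.23 from control, which did not pass, with means of 4.87 in sponge plus Salmonella and 4.42 in control libraries. SOCS3 rose by 2.25 ± 0.28, differed by -1.40 ± 0.28 with the sponge, and its difference of 0.86 ± 0.28 from control ended in 4 of 10 settings.

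The genes measured that encode interferons had levels near background or no called difference, while the receptor genes stood well above background. Of 14 ligands and receptors 8 were measured, with 2 higher and 1 lower with Salmonella, 1 higher and 2 lower with the sponge than with Salmonella alone, and IFNK higher and IFNGR1 lower against control. Over all genes 15.7% were higher and 17.9% lower with Salmonella, 11.9% and 13.2% with the sponge, and 17.9% and 23% against control, so these counts are near the background. The IFNGR1 call against control (-0.92 ± 0.22, adjusted p = 0.0043 with limma) held in all 10 settings. IFNGR1 averaged 11.34 in sponge plus Salmonella and 12.25 in control libraries. The IFNK call against control (0.21 ± 0.07, adjusted p = 0.0296 with limma) ended in 7 of 10 settings, with adjusted p up to 0.314. IFNK was also the gene that was higher with the sponge, by 0.40 ± 0.07, and it averaged 4.64 in sponge plus Salmonella, 4.24 in Salmonella and 4.43 in control libraries, all near background. IFNB1, the gene of interferon beta, averaged 4.41 in sponge plus Salmonella, 4.35 in Salmonella and 4.42 in control libraries, below the silent-set mean in each. IFNG, the gene of interferon gamma, averaged 5.54 ± 0.63 in sponge plus Salmonella, 5.12 ± 0.78 in Salmonella and 5.70 ± 0.36 in control libraries (SD, n = 4). None of its differences passed, except that it was lower with Salmonella than in control without Salmonella replicate 2 (adjusted p = 0.0407 with limma). IFNB1, IFNG, IFNK and IFNGR1 were named after their values were seen. IFNGR2, a chain of the interferon gamma receptor, rose by 1.03 ± 0.18 with Salmonella, differed by -0.81 ± 0.18 with the sponge and differed by 0.22 ± 0.18 from control, which passed only with quantile normalization (adjusted p = 0.0272). IL10RB, a chain shared by the receptors of interleukin-10 and interferon lambda, rose by 0.57 ± 0.16, differed by -0.80 ± 0.16 with the sponge and differed by -0.22 ± 0.16 from control. IFNE, an epithelial interferon gene, differed by -0.81 ± 0.26 with Salmonella, a call that ended in 3 of 10 settings. It averaged 4.52 with Salmonella, below background, and 5.33 in control libraries. Of 9 signal transducers only JAK1 and PIAS1 were measured, and neither passed with Salmonella (-0.15 ± 0.16 for JAK1 and 0.41 ± 0.18 for PIAS1). Without Salmonella replicate 1, PIAS1 passed against control (adjusted p = 0.0105) and with the sponge (adjusted p = 0.0114). JAK1 was higher with the sponge, by 0.97 ± 0.16 over Salmonella and 0.81 ± 0.16 over control, and PIAS1, an inhibitor of cytokine signalling, differed by -0.41 ± 0.18 from Salmonella and by -0.01 ± 0.18 from control.

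Interferon-inducible GTPases, which attack the vacuoles of intracellular microbes, moved with the effector genes in part. Of 8 listed 3 were measured and all 3 rose with Salmonella, against 15.7% of all genes. GBP4 rose by 5.15 ± 0.49, differed by -2.82 ± 0.49 with the sponge and stayed 2.33 ± 0.49 above control. GBP6 rose by 5.49 ± 0.51, differed by -3.87 ± 0.51 with the sponge, and its difference of 1.62 ± 0.51 from control ended without sponge plus Salmonella replicate 1 or 2. GBP3 rose by 1.90 ± 0.51 but did not differ detectably between sponge plus Salmonella and Salmonella, at 0.04 ± 0.51 with a 95% interval of -1.05 to 1.13. GBP3 averaged 5.77 ± 0.91 in sponge plus Salmonella, 5.73 ± 1.24 in Salmonella and 3.83 ± 0.16 in control libraries, the last below background.

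Genes whose levels ran most like the mean of the 8 effector genes were found by Pearson's r over the 12 libraries, after each gene was centred on its own mean. The libraries fall into 3 groups, so r mainly reflects the differences between groups, and it is given as a description. The 8 genes with the highest r were TNFSF10 (0.994), STX11 (0.993), IFIT2 (0.990), ANKRD22 (0.989), SLC6A12 (0.989), IFIH1 (0.986), VAMP5 (0.986) and SLAMF8 (0.986). Of these, IFIT2 and IFIH1 belong to the lists above. TNFSF10, the death ligand TRAIL, averaged 10.75 ± 0.84 with sponge plus Salmonella, 12.86 ± 0.40 with Salmonella and 8.81 ± 0.39 in control libraries (SD, n = 4). STX11, a syntaxin of lymphocytes and phagocytes, averaged 10.26 ± 0.75 in sponge plus Salmonella, 12.31 ± 0.38 in Salmonella and 8.20 ± 0.15 in control libraries.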

How the data were processed

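RNA of 12 PBMC libraries was extracted with a PAXgene kit and made into Illumina TruSeq libraries, per the labels' protocols, and sequenced from 1 end for 50 bases, per the series text. Bowtie, R 3.4.2 and build Sscrofa11.1 were used, per the submitters' processing notes. The deposited log2 values have 1 row per gene symbol. The sources used here do not give the counting, scaling or filtering of reads. Any pair of Salmonella or control columns shares 1696 to 1809 exact values. Reads of 50 bases can be shared between near-identical copies, so values of the IFIT, IFITM and OAS families are uncertain in that respect. Gene positions are from the RefSeq table of Sscrofa11.1, which holds all 8 genes, and 399 of 7480 symbols (5.33%) had no match in the pig tables. Promoter sequences were not analysed here.

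All 7480 genes and 12 libraries entered 1 limma fit (limma 3.58.1, R 4.3.3) with group as the only term and a variance trend, and Benjamini-Hochberg adjusted p under 0.05 over all genes was called. The fit was also run on simulated data with known changes and independent normal noise. Those data lacked the ties and the column ceiling of the deposited values, so that run does not bear on these features. The genes and lists were chosen with earlier results of these data known. Named genes were the 8 effector genes, the 3 members of each pathway list with the smallest p for Salmonella against control, and the 8 genes most like the effector genes. Marker lists are given by counts and levels, in place of the 3 genes planned for each. Alternatives were median centring, quantile normalization, a mean of at least 5, a floor at the silent-set mean, a fit of only the groups compared, other variance models, the replicate block and leaving out each library. For genes outside the set of 8, the 10 settings are median centring, quantile normalization and the 8 left-out libraries of the comparison. Genes withheld from the text and from the plot of other effector genes are not reported here, and the list counts include them.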

Additional observations from a re-analysis of the deposited data

Results flagged for a closer look

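Gaps between libraries were checked in 116 groups of 4 values over 39 genes, and in 6 of them 1 library stood apart by Dixon's test at the 95% level, which chance gives for about 1 in 20. Among the 8 effector genes, control replicate 4 was high for ZBP1 (8.75 log2 units, gap 0.891 of the group's range), and Salmonella replicate 1 was high for PARP9 (10.63, gap 0.834). Without that control library ZBP1 was still called in both comparisons with control, and without that Salmonella library PARP9 was still called in both comparisons with Salmonella. Among the other genes, TNFSF10 was high in Salmonella replicate 4 (13.46, gap 0.843), and PIAS1 was low in Salmonella replicate 1 (9.31, gap 0.886). TK1 was high in sponge plus Salmonella replicate 1 (5.05, gap 0.905), and CASP6 was high in control replicate 3 (4.40, gap 0.841). PIAS1 was called higher with Salmonella without that library (adjusted p = 0.0105 with limma). The causes were not tested.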

How the results depend on the processing

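Over 384 refits of the 8 genes, direction was kept in all, 376 kept the call and 8 lost it, namely those of PARP9 and IFI6 given above. The number of the 8 genes called was 8 with Salmonella throughout, 7 to 8 lower with the sponge, and 6 to 7 higher against control. Of 192 counts, 189 stayed within 1.5 times. The exceptions were genes higher with the sponge than with Salmonella alone, 585 with a mean of at least 5 and 565 with values floored at the silent-set mean, against 888, and genes higher than control with the sponge, 864 with a mean of at least 5, against 1336. A mean of at least 5 left fewer genes to test. The labels do not say whether the replicate numbers pair the libraries. Same-numbered libraries deviated together in 2 of 12 pairs (r from -0.36 to 0.377). Salmonella replicate 1 and control replicate 3, which differ in number, had an r of 0.501. These r cannot show whether libraries share animals. With the replicate block 2371, 1706 and 2907 genes were called in place of 2513, 1873 and 3057, and 8, 8 and 7 effector genes. Depth is unknown, and fold changes of genes with levels near or below 4.63 are uncertain in size.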
